A study of Mus musculus with 13 samples.

Results

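The report describes 10 genes that write, copy, remove or protect DNA methylation in the mouse oocyte: the methyltransferase genes Dnmt1, Dnmt3a, Dnmt3b and Dnmt3l, the Dnmt1 cofactor gene Uhrf1, the oxidase gene Tet3, the protection genes Dppa3, Zfp57 and Trim28, and the histone demethylase gene Kdm1b. They were chosen by name and found by matching the Ensembl identifiers of the count tables to mouse gene symbols, and all 10 were present among the 22442 genes listed. Ribo-seq, which counts the mRNA pieces that ribosomes shield from RNase I, was carried out on 3 WT GV, 3 Nat10-ZcKO GV, 2 WT MII and 3 Nat10-ZcKO MII libraries of mouse oocytes. GV oocytes are full-grown oocytes arrested with an intact nucleus, the germinal vesicle, and MII oocytes have resumed meiosis and stopped again at the second metaphase. In Nat10-ZcKO oocytes a Zp3-Cre transgene, active in growing oocytes, deletes loxP-flanked exons of Nat10, which encodes the RNA acetyltransferase that makes N4-acetylcytidine (ac4C). The WT libraries come from oocytes without that deletion. The study reports that most superovulated Nat10-ZcKO oocytes were arrested at the first metaphase, before MII. The stage of each library is taken here from its label. Per the study's methods the oocytes came from juvenile females primed with PMSG, with hCG added for MII oocytes, and were treated with cycloheximide, which holds ribosomes in place, before lysis. The labels' design text mentions a tamoxifen injection, whereas the methods describe a Zp3-Cre cross, and this difference could not be settled here. In addition, acRIP-seq sequenced mRNA fragments of WT GV oocytes pulled down by an anti-ac4C antibody, with an IgG control, in 1 library each.

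In the growing oocyte, methylation is laid down de novo by DNMT3A together with its catalytically inactive partner DNMT3L, after histone marks such as H3 lysine methylation have been cleared by demethylases, KDM1B among them. DNMT1, brought to hemimethylated DNA by UHRF1, copies methylation at replication, and the egg hands both proteins to the embryo. After fertilization TET3 oxidizes methylcytosine, mainly in the paternal pronucleus, while DPPA3 (also called STELLA) shields maternal methylation, and ZFP57 with TRIM28 keeps methylation at imprinted loci. A footprint count measures how much of an mRNA is present together with how heavily it is translated, and these parts cannot be separated without the matching mRNA level. Since each library pools oocytes, fewer contributing cells and less RNA per cell cannot be told apart either.

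Because the members' footprints were compared between GV and MII oocytes, a period without transcription in which dormant maternal mRNAs are known to be polyadenylated through short U-rich elements, the ends of the annotated mRNAs were searched for the letters TTTTAT and TTTTAAT. The search covered the last 100 bases of the most distal annotated 3′ UTR on the sense strand only (GENCODE M21, GRCm38). Of the 10 members, 3 held a match, whereas 17.8% of 19671 genes with a 3′ UTR of at least 100 bases did. Tet3 held both motifs, which share no bases, 20 and 29 bases from the annotated end; Dnmt1 held TTTTAT 42 bases from its end, and Dnmt3a held it 49 bases from its end. The 30-base windows are chr6:83362381-83362410 and chr6:83362390-83362419 (minus strand) for Tet3, chr9:20907239-20907268 (minus strand) for Dnmt1 and chr12:3914377-3914406 (plus strand) for Dnmt3a. They are shown because Tet3 and Dnmt1, whose counts moved in opposite directions below, both hold the letters; the capitals mark the motif, 5′ to 3′.
Tet3, TTTTAT: tgttttaataaaTTTTATatttattttttg
Tet3, TTTTAAT: tattgtgggtgTTTTAATaaattttatatt
Dnmt1, TTTTAT: gacttgatgtagTTTTATatgttgtaatat
Dnmt3a, TTTTAT: tgtttatatataTTTTATtttcgctataaa
These matches describe letters in an annotated end, which need not be the end used in oocytes, and are not mapped binding sites.

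The libraries differed in depth and content. The total was 4815 to 279464 footprint counts, so that a gene at 0 could lie anywhere up to 10.7 to 623 CPM (counts scaled to the library total), with 3 counts taken as the detection limit. These limits and the 95% intervals below reflect counting error alone. Among the libraries, 3 stood apart. WT MII replicate 2 held 4815 counts and 6 counts on the members, with 11 of 12 oocyte markers at 0. Nat10-ZcKO GV replicate 1 held 0.0142% of its counts on oocyte markers (9 of 12 at 0) and 1.30% on 12 adipocyte markers, and Nat10-ZcKO GV replicate 2 held 1.45% and 0.280%. In the 8 other libraries oocyte markers took 1.07% to 10.7% and adipocyte markers 0.0150% to 0.0281%. Of the 552 adipocyte marker counts in Nat10-ZcKO GV replicate 1, 298 were on Fasn and 131 on Fabp4. Markers of granulosa or cumulus cells took 1.13% in that library, against 0.223% to 0.568% in the 8 other libraries. The members' values and fits are therefore given with and without these 3 libraries, and the part of the marker differences in the results was not tested. The targeted gene Nat10 had 8, 11 and 3 counts in WT GV against 4, 1 and 5 in Nat10-ZcKO GV, and 1 and 5 in WT MII against 6, 3 and 2 in Nat10-ZcKO MII, which is too few to check the labels.

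Together the 10 members took 0.843% to 1.05% of all footprint counts in WT GV oocytes, and their level per coding length spanned a wide range. Levels between genes were compared in TPM, which divides the counts by CDS length before scaling. Dnmt1 (chromosome 9, 20907209 to 20959888) was the highest in WT GV at 1439 ± 188 TPM (SD, n = 3), followed by Uhrf1 (chromosome 17, 56303321 to 56323486) at 1287 ± 177 TPM and Dppa3 (chromosome 6, 122626410 to 122630272) at 1156 ± 361 TPM. The ranges of these 3 genes overlapped, so their order is not fixed by these libraries. All 3 stood above Kdm1b (chromosome 13, 47043499 to 47085279) at 379 ± 132 TPM, which in turn did not overlap the genes below it. Zfp57 at 144 ± 90.4 TPM, Trim28 at 122 ± 43.8 TPM, Dnmt3a at 75.6 ± 14.6 TPM, Tet3 at 61.3 ± 16.9 TPM and Dnmt3l at 46.4 ± 25.1 TPM formed a group in which each neighbour overlapped the next. Dnmt3b, a de novo methyltransferase gene used mainly in the embryo, had 1 count in the 3 WT GV libraries together and 5 in all 11.

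Thus the maintenance pair far exceeded the de novo pair in footprints: in WT GV the counts were 679, 1672 and 538 on Dnmt1 and 293, 737 and 227 on Uhrf1, against 19, 53 and 17 on Dnmt3a and 5, 8 and 7 on Dnmt3l. The ratio of Dnmt1 to Uhrf1 counts was nearly the same in the 3 WT GV libraries, at 2.32, 2.27 and 2.37, and was 2.11 in Nat10-ZcKO GV replicate 3. It was higher in the 4 MII libraries with depth, at 4.22 in WT and 2.68, 2.67 and 4.21 in Nat10-ZcKO. Nat10-ZcKO GV replicates 1 and 2, which stood apart, were above all of these. They had ratios of 21 (21 counts against 1) and 9.85 (128 counts against 13), so the ratio did not follow the stage in every library.
How reads with several genomic matches were counted is not given in the sources used here. Of the 29-base windows along the CDS, 65.0% of those of Dppa3, 45.0% of those of Uhrf1 and 29.9% of those of Dnmt3b occurred more than once in GRCm38, against 1.25% for Dnmt3a and 0% for the other 6 members. The values of Dppa3, Uhrf1 and Dnmt3b are therefore uncertain.

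**Figure D1:**
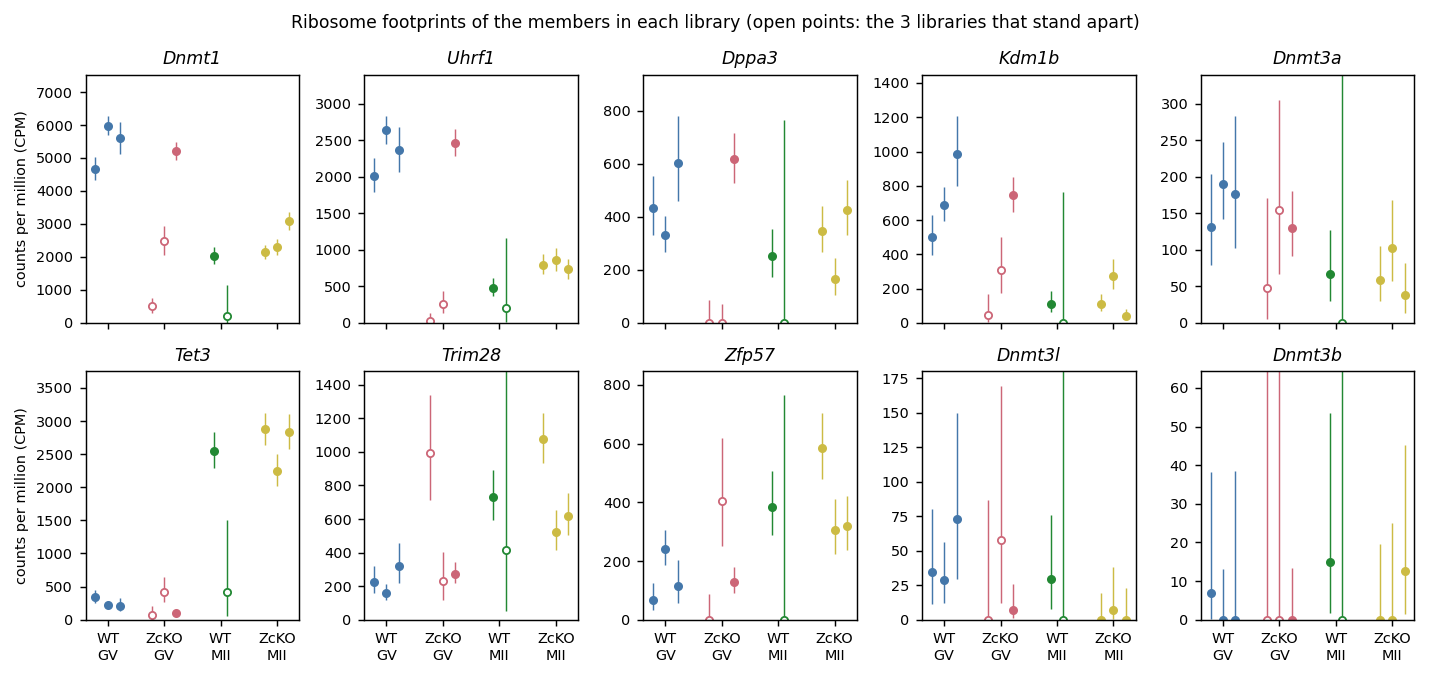
Footprint level (CPM) of each member in each of the 11 libraries by group (ZcKO: Nat10-ZcKO), with 95% counting intervals as bars that run past the axis where they are long; the open points are WT MII replicate 2 and Nat10-ZcKO GV replicates 1 and 2. Tet3 stood at 97.4 to 344 CPM in the 4 GV libraries drawn as filled points and at 2249 to 2873 CPM in the 4 filled MII libraries.

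The comparison of MII with GV oocytes asked how the members' footprints change during meiotic maturation, and with all libraries included only Tet3 (chromosome 6, 83362373 to 83459084) passed by edgeR, in Nat10-ZcKO. Tet3 had 50, 63 and 20 counts in WT GV (344, 225 and 208 CPM) and 344 and 2 counts in WT MII (2551 and 415 CPM). In Nat10-ZcKO it had 3, 22 and 27 counts in GV (70.8, 425 and 97.4 CPM) and 540, 330 and 452 in MII (2873, 2249 and 2830 CPM). The MII libraries lay above all GV libraries except for WT MII replicate 2, whose 2 counts carry an interval of 50.3 to 1500 CPM. In Nat10-ZcKO the rise was a log2 change of 3.64 (SE 0.97), 12.4-fold, with an adjusted p of 0.0296 by edgeR's quasi-likelihood test with Benjamini-Hochberg adjustment. It was the only one of 8 members tested that passed there, while 16.2% of the 2225 genes tested did, and 10.2% passed as higher in MII. This call needs all 3 Nat10-ZcKO MII libraries: with replicate 1, 2 or 3 of them left out, the adjusted p of Tet3 lay between 0.0809 and 0.133, and no gene passed. It was lost as well in one fit of all 11 libraries (adjusted p = 0.0869 by edgeR) and with the replicate block (adjusted p = 0.0583 by edgeR). The log2 change was 3.81 to 4.14 in these 5 fits, above the 3.64 just given. In WT the log2 change of Tet3 was 2.90 (SE 1.42) with an adjusted p of 0.117, and none of 8 members passed by edgeR, against 21.5% of 2045 genes and 9.98% as higher in MII; 1 member had an unadjusted p under 0.05. DESeq2 called 5 members in WT, all lower in MII (Dnmt1, Uhrf1, Kdm1b, Dnmt3a and Dppa3), where it called 43.6% of the genes, 41.3% as lower. Tet3 was not among them (log2 change 1.83, adjusted p = 0.0606 by DESeq2), and there the change of Kdm1b, at -3.64, was larger in size than that of Tet3. With WT MII replicate 2 as the lone WT MII library, all 8 members, Tet3 included, were called lower in MII, as were 72.5% of 2455 genes. In Nat10-ZcKO, leaving out GV replicate 3 turned Uhrf1 and Dppa3 to higher in MII, so that 3 members passed as higher, where 16.4% of 2921 genes did. Leaving out GV replicate 1 added Kdm1b as lower (adjusted p = 0.0385), where 12.1% of 2693 genes were.

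Without the 3 libraries the same comparison separated most members. In WT, 3 GV libraries against MII replicate 1, whose spread is then assumed to equal that of the GV libraries, 7 of 9 members tested passed the adjusted threshold of 0.05, 3 higher and 4 lower in MII, among 44.9% of 3264 genes. In Nat10-ZcKO, GV replicate 3 against 3 MII libraries, 5 of 8 passed, 1 higher and 4 lower, among 38.6% of 3741 genes. A fit with 1 stage effect for both genotypes over the 8 libraries (4 GV and 4 MII), added after the data were seen, called 3 of 9 members higher in MII (background 25.0% of 4029 genes) and 5 lower (background 30.1%). Judged by CPM alone, 3 members had every MII library above every GV library, where 25.1% of the 4029 genes did, and 4 had every MII library below, where 25.9% did. The members were chosen with such results known, so these counts describe them and nothing is read from the excess over all genes.

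In that fit Tet3 rose by 3.81 on the log2 scale (SE 0.35, 14.1-fold, adjusted p = 4.52e-10 by edgeR). Trim28 (chromosome 7, 12999114 to 13031035), the scaffold that ZFP57 recruits to imprinted loci, rose by 1.39 (SE 0.31, adjusted p = 0.000394). At GV its level was 227, 157 and 322 CPM in WT and 274 CPM in Nat10-ZcKO replicate 3, and at MII it was 734 CPM in WT replicate 1 and 1075, 525 and 620 CPM in Nat10-ZcKO. Every one of these 4 MII values was above the 4 GV values, but Nat10-ZcKO GV replicate 1, the library with adipocyte markers, reached 992 CPM. Zfp57 (chromosome 17, 37001163 to 37010635), the zinc finger protein that binds methylated imprinted loci, rose by 1.32 (SE 0.37, adjusted p = 0.00386). Zfp57 had 68.7, 240 and 114 CPM in WT and 130 CPM in Nat10-ZcKO replicate 3 at GV, against 386 CPM in WT replicate 1 and 585, 307 and 319 CPM in Nat10-ZcKO at MII. The libraries left out do not follow the split, since Nat10-ZcKO GV replicate 2 was at 406 CPM.

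Dnmt1, Uhrf1, Kdm1b, Dnmt3a and Dppa3 fell in the same fit. Dnmt1 at GV was at 4668, 5983 and 5596 CPM in WT and at 5214 CPM in Nat10-ZcKO replicate 3, and at MII it was at 2032 CPM in WT replicate 1 and 2139, 2290 and 3087 CPM in Nat10-ZcKO; it fell by 1.38 on the log2 scale (SE 0.31, adjusted p = 0.000554 by edgeR). Uhrf1 went from 2014 to 2637 CPM in the 4 GV libraries to 482 to 859 CPM in the 4 MII libraries, and fell by 2.10 (SE 0.29, adjusted p = 6.62e-07). These are the genes with the most footprints at GV, and neither had overlapping stages in the 8 libraries. The GV libraries left out do not follow the split: Nat10-ZcKO GV replicate 1 was at 496 CPM on Dnmt1 and replicates 1 and 2 at 23.6 and 251 CPM on Uhrf1, below every one of those MII values. With all Nat10-ZcKO libraries the log2 changes of Dnmt1 and Uhrf1 were -0.52 and -0.79, and neither passed (adjusted p = 0.735 and 0.640 by edgeR). Kdm1b, the demethylase that acts ahead of de novo methylation, fell by 2.72 (SE 0.39, adjusted p = 1.08e-06), from 502, 691, 988 and 743 CPM at GV to 111, 112, 273 and 37.6 CPM at MII. Dnmt3a (chromosome 12, 3806007 to 3914443) went from 130 to 190 CPM at GV to 37.6 to 102 CPM at MII and fell by 1.31 (SE 0.43, adjusted p = 0.0112). Dppa3 fell by 1.06 (SE 0.33, adjusted p = 0.00783) although its stages overlapped, at 329 to 617 CPM in GV and 164 to 426 CPM in MII. Dnmt3l (chromosome 10, 78041947 to 78063622) had 2 to 8 counts per library in these 4 GV libraries and 0 to 4 in these 4 MII libraries, and its log2 change of -0.91 (SE 1.13) was within its error. Dnmt3b (chromosome 2, 153649450 to 153687730) was too low to be tested. All genes together had a median log2 change of -0.14 in this fit.

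**Figure D2:**
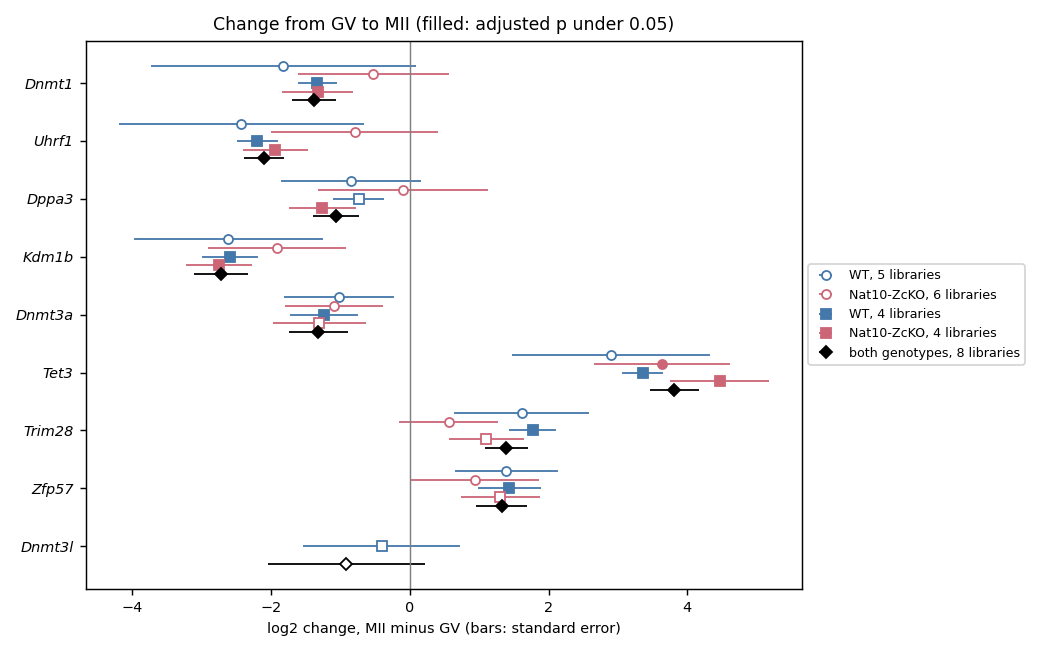
Log2 change from GV to MII (x axis, bars: standard error) of each member tested by edgeR, in WT, in Nat10-ZcKO, and with 1 effect for both genotypes; circles use all libraries of the groups, squares and diamonds leave out the 3 libraries that stand apart, and filled symbols have an adjusted p under 0.05. Tet3, Trim28 and Zfp57 lie above 0 and the other members below 0 in every fit shown.

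Ratios within a library do not depend on how libraries are scaled to each other. The ratio of Tet3 to Dnmt1 counts was 0.0736, 0.0377 and 0.0372 in WT GV and 0.0187 in the third Nat10-ZcKO GV library. At MII it was 1.26 in WT replicate 1 (95% interval 1.07 to 1.48) and 1.34, 0.982 and 0.917 in Nat10-ZcKO. Nat10-ZcKO GV replicates 1 and 2, at 0.143 and 0.172, were above the other GV libraries and below every MII library. Other ratios did not part the stages with these replicates included. Tet3 to Uhrf1 was 3 and 1.69 in them, against 2.62 to 5.29 in the 4 MII libraries. Trim28 to Dnmt1 was 2 in replicate 1, against 0.201 to 0.502 in those MII libraries. Zfp57 to Dnmt1 was 0.164 in replicate 2, against 0.103 to 0.274. The ratio of Kdm1b to Dnmt1 counts was 0.108 to 0.177 in the 4 GV libraries and 0.0122 to 0.119 in the 4 MII libraries, which overlapped. For Dppa3 to Dnmt1 the ranges were 0.0550 to 0.118 and 0.0714 to 0.162, so that these 2 genes did not part from each other in those libraries. Nat10-ZcKO GV replicates 1 and 2 had a ratio of Kdm1b to Dnmt1 of 0.0952 and 0.125. They held 0 Dppa3 counts against 21 and 128 on Dnmt1. The upper 95% bound in replicate 2, 0.0292, lay below both ranges of Dppa3 to Dnmt1.

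Consequently the makeup of the members' footprints changed. Dnmt1 made up 53.6% to 57.1% and Tet3 1.01% to 4.08% of the members' counts in the 4 GV libraries. In the 4 MII libraries Dnmt1 made up 26.8% to 38.1% and Tet3 33.2% to 38.3%. Nat10-ZcKO GV replicates 1 and 2, left out here, had 29.6% and 57.4% on Dnmt1 and 4.23% and 9.87% on Tet3. Per coding length the order in MII, by the median of the 4 libraries, was Dppa3 (758 TPM), Tet3 (636 TPM), Dnmt1 (601 TPM), Uhrf1 (419 TPM), Zfp57 (361 TPM) and Trim28 (349 TPM). Ranges overlapped widely among these 6 genes: that of Dppa3 (434 to 1072 TPM) met those of all the others, and that of Zfp57 (324 to 597 TPM) did too, so their order is not fixed. Of neighbours in the order, Dnmt1 and Uhrf1 did not overlap. Kdm1b (58.1 TPM), Dnmt3a (28.6 TPM), Dnmt3l (3.64 TPM) and Dnmt3b (3.11 TPM) followed below them without meeting their ranges. Tet3 was at the eighth place in the same order at GV (51.6 TPM), and at MII it lay within the upper group of 6.
Other values moved with the stage in the same libraries: oocyte markers took 5.32% to 10.7% of counts in the 4 GV libraries and 1.07% to 1.27% in the 4 MII libraries. Of the cumulus cell markers, Ptx3 and Tnfaip6 had 0 to 1 counts per GV library and 62 to 285 and 31 to 83 in those 4 MII libraries, while Amh had 60 to 93 counts in those 4 GV libraries and 0 to 4 at MII. The whole list of 15 granulosa or cumulus markers took 0.276% to 0.515% of counts at GV and 0.223% to 0.568% at MII. Their part in the members' changes was not tested.

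**Figure D3:**
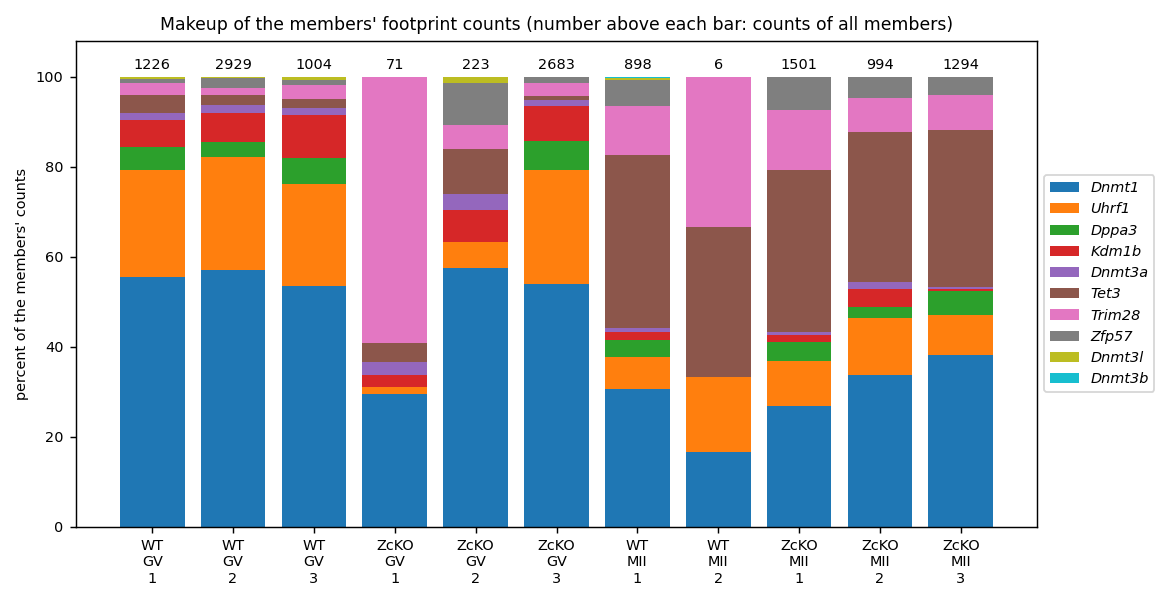
Share of the members' footprint counts (y axis, percent) taken by each member in each of the 11 libraries (ZcKO: Nat10-ZcKO), with the members' counts printed above each bar. Dnmt1 took over 50% in the 3 WT GV libraries and Nat10-ZcKO GV replicates 2 and 3, and 29.6% in Nat10-ZcKO GV replicate 1. Tet3 took 33.2% to 38.3% in the 4 MII libraries with depth. WT MII replicate 2 rests on 6 counts.

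The comparison of Nat10-ZcKO with WT asked whether loss of Nat10 changes the members' footprints. At GV none of 8 members passed by edgeR, and 0% of 1765 genes did. By edgeR 0 members and 85 genes had an unadjusted p under 0.05. DESeq2 called 0 members and 6 genes, but gave no adjusted p for Dnmt3a, Uhrf1 and Zfp57. The Nat10-ZcKO GV libraries disagreed among themselves on the members. Dnmt1 was at 496, 2475 and 5214 CPM there, against 4668 to 5983 CPM in WT, and its log2 change was -0.82 (SE 1.05). Uhrf1, at 23.6, 251 and 2468 CPM against 2014 to 2637 CPM, had a log2 change of -1.17 (SE 1.24). Dppa3 had 0, 0 and 171 counts against 63, 92 and 58, and Kdm1b 2, 16 and 206 counts against 73, 193 and 95. Replicates 1 and 2, which are low in oocyte markers too, were low on these 4 genes, while replicate 3 lay within or near the WT range on each. With replicate 3 left out instead, Uhrf1 (adjusted p = 0.0291 by edgeR) and Dppa3 (adjusted p = 0.0103, with no count in either library left) were lower in Nat10-ZcKO, as were 10.1% of 1858 genes.

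Without replicates 1 and 2, the signs of Dnmt1, Uhrf1, Dppa3, Kdm1b and Zfp57 turned, to log2 changes of 0.15 (SE 0.25), 0.28 (SE 0.26), 0.67 (SE 0.31), 0.26 (SE 0.30) and -0.02 (SE 0.43), and none of 9 members tested passed by edgeR, while 2.01% of 3879 genes did. By unadjusted p, 2 members were under 0.05 before adjustment: Dppa3 (adjusted p = 0.315 by edgeR) and Tet3, whose log2 change was -1.23 (SE 0.42, adjusted p = 0.128 by edgeR). Tet3 in that replicate was at 97.4 CPM, below the WT values of 208 to 344 CPM, but the value rests on 1 library and on 27 counts. Trim28 was at 992, 232 and 274 CPM against 157 to 322 CPM in WT, and its log2 change of 1.10 (SE 0.69) became 0.47 (SE 0.36) without replicates 1 and 2. Dnmt3a, the de novo enzyme, was at 47.2, 155 and 130 CPM against 131, 190 and 177 CPM (log2 change -0.39, SE 0.58).

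At MII none of 7 members tested passed by edgeR and 0.191% of 2097 genes did; DESeq2 called 0 members, and 0 had an unadjusted p under 0.05. The log2 changes ran from 0.41 (Trim28, SE 1.60) to 1.16 (Uhrf1, SE 1.63), all with standard errors near or above the change, since WT MII replicate 2 had 0 to 2 counts on each member. Against WT MII replicate 2 alone, with its 6 counts on the members, 7 of 8 passed as higher in Nat10-ZcKO, as did 47.3% of 2809 genes, whose median log2 change was 6.52. Against WT MII replicate 1 alone, none of 8 passed, among 0.205% of 2924 genes. The changes were then -0.01 for Tet3 (SE 0.51), 0.26 for Dnmt1 (SE 0.51), 0.65 for Uhrf1 (SE 0.50), -0.09 for Trim28 (SE 0.48), -0.04 for Zfp57 (SE 0.50), 0.25 for Dppa3 (SE 0.52), 0.22 for Kdm1b (SE 0.65) and -0.12 for Dnmt3a (SE 0.90). With standard errors of this size, changes of 2-fold or more in either direction could go undetected, so these values do not show that the genotypes are alike.

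Whether the change from GV to MII differed between genotypes was tested by the interaction of stage and genotype. None of 8 members passed in the 11 libraries by edgeR, among 0.906% of 3863 genes, with 0 members under an unadjusted p of 0.05 and 0 called by DESeq2. The differences ran from 0.17 for Trim28 (SE 1.90) to 2.80 for Uhrf1 (SE 2.25), around a median of 0.96 over all genes tested. With WT MII replicate 1 left out 3 of 9 passed as higher (Dnmt1, Tet3 and Zfp57), as did 15.8% of 5532 genes. With Nat10-ZcKO GV replicate 3 left out 1 of 8 did (Dppa3), as did 0.979% of 3574 genes. Over the 8 libraries none of 9 passed, and 0% of 4029 genes did, with 0 members and 263 genes at an unadjusted p under 0.05 (DESeq2 was not run on these libraries). Tet3 then had a difference of 1.11 (SE 0.63), Dnmt1 of 0.01 (SE 0.60), Uhrf1 of 0.27 (SE 0.56) and Trim28 of -0.67 (SE 0.60). The WT and Nat10-ZcKO stage changes share no library.

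**Figure D4:**
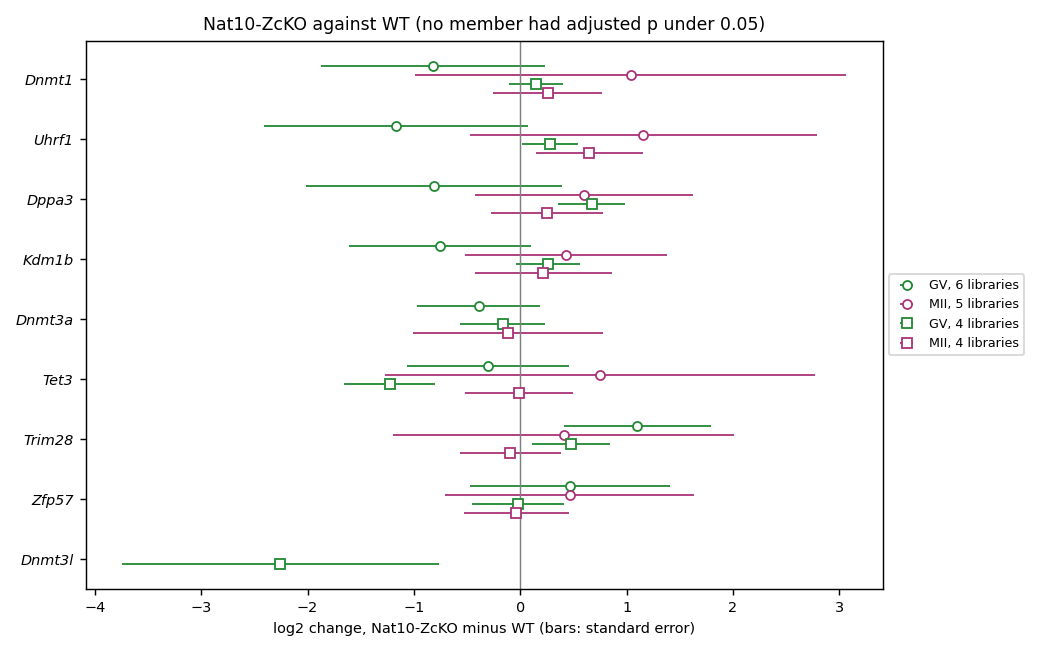
Log2 change of Nat10-ZcKO against WT (x axis, bars: standard error) of each member tested by edgeR at GV and at MII; circles use all libraries of the groups and squares leave out the 3 libraries that stand apart. No point had an adjusted p under 0.05, and Dnmt1, Uhrf1, Dppa3 and Kdm1b at GV changed from below 0 to above 0 when Nat10-ZcKO GV replicates 1 and 2 were left out.

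Other genes of the pathway were taken from 4 lists. The shares of all genes to set beside their counts are 21.5% in WT maturation, with 9.98% as higher in MII. In Nat10-ZcKO maturation they are 16.2%, with 10.2% as higher in MII. Among 21 other readers, erasers and cofactors of DNA methylation, 3 were tested in WT maturation and 1 fell, Ung, a uracil glycosylase gene of base excision repair (log2 change -3.59, SE 1.18, adjusted p = 0.0205 by edgeR). None of 6 tested passed in Nat10-ZcKO. In the fit of 8 libraries 2 of 7 rose and 3 fell, with a median log2 change of 0.76 (-0.14 over all genes), against 25.0% and 30.1% of genes. Mbd2, a methyl-CpG binding protein gene, was among the lower ones (-2.44, SE 0.53, adjusted p = 0.000365), with Ung (-1.58, SE 0.56) and Mbd3 (-3.32, SE 0.96), and Pcna, the sliding clamp gene, and Gadd45a were the higher ones (1.94, SE 0.59, and 4.31, SE 0.80). Usp7, which encodes a deubiquitinase of DNMT1 and UHRF1, did not pass (0.77, SE 0.36, adjusted p = 0.0675), nor did the remodeller gene Hells (0.76, SE 0.50).

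Among 19 other partners in imprint protection and heterochromatin, 1 of 3 rose in WT maturation, Atrx, a remodeller gene of heterochromatin (2.25, SE 0.84, adjusted p = 0.0398), and none of 6 passed in Nat10-ZcKO. In the 8 libraries 2 of 11 rose and none fell (median 0.62), against 25.0% and 30.1% of genes. Atrx rose by 2.38 (SE 0.33, adjusted p = 6.21e-07 by edgeR). Daxx, which encodes a partner of ATRX, rose by 1.82 (SE 0.62, adjusted p = 0.0146 by edgeR). Smchd1, at 0.03 (SE 0.38), did not pass. WT oocytes gave 20, 38 and 13 Atrx counts at GV and 100 at MII (replicate 1), and Nat10-ZcKO oocytes gave 35 at GV (replicate 3) and 107, 107 and 163 at MII.

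Among 18 histone methylation enzymes that bear on where oocyte DNA is methylated, 1 of 9 rose in WT maturation, Kdm1a, the paralogue of Kdm1b (1.66, SE 0.64, adjusted p = 0.0459), and 1 of 10 fell in Nat10-ZcKO, Glyr1, which encodes a partner of KDM1B (-2.32, SE 0.71, adjusted p = 0.0440). In the 8 libraries 2 of 12 rose and 2 fell (median 0.36), against 25.0% and 30.1% of genes. Kdm1a (1.58, SE 0.40, adjusted p = 0.00148) and the methyltransferase gene Kmt2d (1.15, SE 0.32, adjusted p = 0.00378) were higher, and Glyr1 (-2.31, SE 0.49, adjusted p = 0.000262) and the demethylase gene Kdm2b (-1.14, SE 0.30, adjusted p = 0.00209) were lower. Kdm1b and Glyr1 thus fell and Kdm1a rose in these 8 libraries.

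Of 25 imprinted protein-coding genes few had enough footprints to be tested. In WT 1 of 4 rose, Mest (1.80, SE 0.65, adjusted p = 0.0354), and in Nat10-ZcKO 1 of 4 fell, Gnas (-2.59, SE 0.77, adjusted p = 0.0399). In the 8 libraries 2 of 7 rose and 1 fell (median 0.52), against 25.0% and 30.1% of genes. By edgeR Mest was at 1.70 (SE 0.39, adjusted p = 0.000613), Usp29 at 3.66 (SE 0.98, adjusted p = 0.00261) and Gnas at -2.33 (SE 0.31, adjusted p = 3.09e-07). Igf2r did not pass at 0.52 (SE 0.30). No gene of the 4 lists passed in either comparison of genotypes or in the interaction, with all libraries or without the 3.

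The genes most like the 3 members with the most counts were sought by the Pearson correlation of log2(CPM + 1) over the 11 libraries among 2190 genes with at least 100 counts, as a description. For Dnmt1 they were Padi6 (0.98), Uchl1 (0.98) and Nlrp14 (0.98), genes with high levels in oocytes. For Uhrf1 they were Pecr (0.94), Mat2b (0.93) and Arg2 (0.92), and for Tet3 they were Gle1 (0.97), Rfpl4 (0.97) and Sall4 (0.96). Without the 3 libraries, a choice made after the data were seen, r was 0.90 to 0.95 for the genes named for Dnmt1 and 0.95 to 0.98 for those named for Tet3. For Uhrf1 it was 0.98 with Pecr, 0.96 with Arg2 and 0.55 with Mat2b. None of the 9 genes was then among the 3 most like its member, the nearest being Pecr at rank 20. All points share their library depth and the difference between stages.

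In acRIP-seq the question was which mRNAs the anti-ac4C antibody enriched over IgG in WT GV oocytes. With 1 library each there is no replicate check and no p-value, and the intervals cover counting error only; the totals were 970997 counts for anti-ac4C and 116232 for IgG. Of the members 4 had a CPM ratio above 2, and of the 9 with at least 50 counts 3 did, where 32.8% of 4680 such genes did. These counts depend on the scaling: with fragments on no feature counted in the library size 7 of the 9 were above 2, as were 49.3% of the genes, and without scaling all 9 and 97.7%. Dnmt3l had 231 against 8 counts, a ratio of 3.46 (95% interval 1.73 to 8.10). Zfp57 had 1886 against 105 counts, a ratio of 2.15 (1.77 to 2.64), and Dnmt1 had 6072 against 356, a ratio of 2.04 (1.83 to 2.28). The fourth was Dnmt3b with 20 counts against 0, whose interval starts at 0.591. Each interval reached below 2, so that none of the 9 members had a lower bound above 2, where 9.38% of the 4680 genes did.

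Tet3 at 1.92 (1.30 to 2.95) and Kdm1b at 1.87 (1.26 to 2.90) lay just under the threshold, with intervals that held it. Uhrf1, at 1.40 (1.08 to 1.84), and Dppa3, at 0.678 (0.551 to 0.841), had intervals wholly under 2, as did Dnmt3a at 0.847 (0.607 to 1.21). Trim28 was at 1.33 (0.896 to 2.05). The median ratio over the 4680 genes was 1.27, and the median over the members was 1.90 with Dnmt3b included. Dnmt1 and its cofactor Uhrf1, close in footprint level, thus had intervals that met only at their edges, while the interval of Dppa3, the third gene of that level, lay below both.

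**Figure D5:**
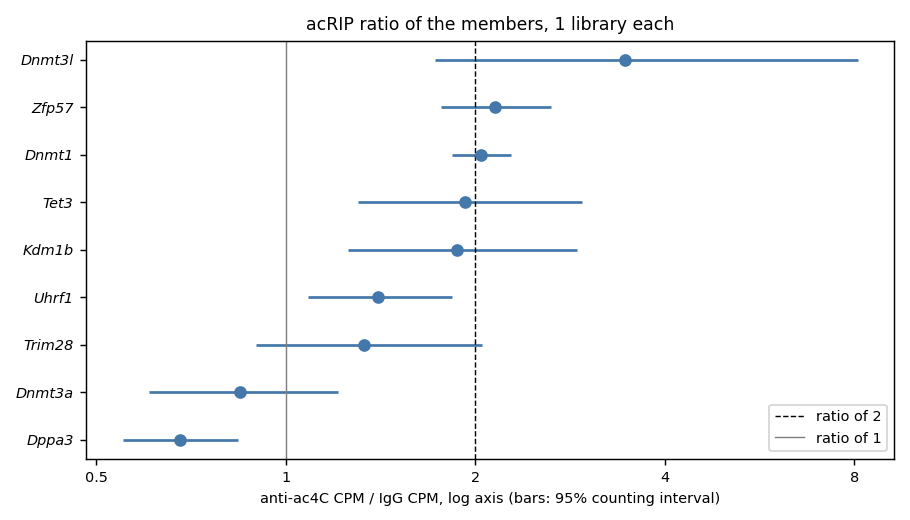
Ratio of anti-ac4C to IgG CPM (x axis, log scale) for the 9 members with counts in both libraries, with 95% counting intervals; lines mark ratios of 1 and 2. The points for Dnmt3l, Zfp57 and Dnmt1 lie above 2 and all 3 intervals reach below it.

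Set beside the fragments of the IgG library, which is a control pulldown and not a measure of mRNA level, footprints were unevenly spread over the members. Footprint CPM in WT GV divided by IgG CPM was 4.25 for Uhrf1 (2.86 to 6.22, from the lowest and highest WT GV library over the 95% bounds of the IgG value), 3.25 for Kdm1b (1.53 to 6.76) and 1.77 for Dnmt1 (1.37 to 2.17). It was 0.156 for Zfp57 (0.0629 to 0.324), 0.481 for Dnmt3a (0.279 to 0.771) and 0.494 for Dppa3 (from 0.296). Dnmt3l (0.658, from 0.211), Trim28 (1.01) and Tet3 (1.12) lay between. Zfp57 thus gave the fewest footprints for its fragments at GV, though its range met those of Dnmt3a, Dppa3 and Dnmt3l. The libraries were made by different protocols, the footprint counts are on the CDS, and neither value was scaled by length. The ratios are a description.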

How the data were processed

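Ribo-seq was analysed in 11 oocyte libraries and acRIP-seq in 2. For both, the authors deposited whole-number counts per gene, without normalization, 1 file per library; Ribo-seq counts are on the CDS. The submitters' processing notes name cutadapt, STAR, HTSeq and mm10, with versions, the handling of multi-mapping reads and duplicates not given in the sources used here. Summary lines of the counter in the acRIP-seq tables (fragments on no feature were 46.7% of IgG and 17.1% of anti-ac4C) were left out. Of 22442 genes, 22399 matched GENCODE M21 (GRCm38) and 43 did not. CPM, TPM and ratios were computed in Python 3.11.15 with pandas 2.3.3; intervals are exact at 95%. Groups were compared with edgeR 4.0.16 (R 4.3.3): filterByExpr, TMM, glmQLFit and glmQLFTest on the groups compared, Benjamini-Hochberg over all genes tested, threshold 0.05; SE was taken as the ratio of the log2 change to the root of the F statistic. The step was tested on simulated data. DESeq2 1.42.0, other scalings, filters and library sets were alternatives. Members, lists, naming rule and the 3 libraries set aside were chosen with earlier results of these data known; the rule named all members, Nat10 and at most 4 genes per list (those called, then those with the most counts), and Mbd3, Pcna, Gadd45a, Daxx, Kmt2d, Usp29, Ptx3, Tnfaip6 and Amh were added after their values were seen. The methods state biological triplicates for experiments in general, but the labels do not say which libraries came from separate animals (WT MII has 2), so p-values measure the spread between these libraries.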

Additional observations from a re-analysis of the deposited data

How the results depend on the processing

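The 5 counts of members called and the acRIP-seq count were recomputed under each alternative. Depth was lowest in WT MII replicate 2 and Nat10-ZcKO GV replicates 1 and 2; the cause of the changes given next was not tested.

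Members called in WT maturation were 0 of 8 in the reported fit, where 439 of 2045 genes were called. They were 5 with DESeq2 (891 genes), 3 with library size only (925 genes) and 2 with DESeq2 size factors in edgeR (1074 genes). For Nat10-ZcKO maturation they were 1 of 8, where 360 of 2225 genes were called. They were 0 with all 11 libraries in one fit (328 of 3863 genes) and 0 with the replicate block (125 genes). Counts without the 3 libraries are given above. The single fit with 1 stage effect for both genotypes called 2219 of 4029 genes and 8 of 9 members. Leaving out 1 library at a time gave 0 to 2 at GV, 0 to 7 at MII, 0 to 8 in WT maturation, 0 to 3 in Nat10-ZcKO maturation and 0 to 3 in the interaction. The high counts came without WT MII replicate 1, when replicate 2 alone stood for WT MII, with 7 at MII, 8 in WT maturation (all lower, among 1902 of 2455 genes called, 1781 of them lower) and 3 in the interaction, and without Nat10-ZcKO GV replicate 3, with 2 at GV (both lower), 3 in Nat10-ZcKO maturation and 1 in the interaction. Members with an acRIP ratio above 2 were 4, but 10 without scaling, 0 by the lower bound and 8 with the summary lines in the library size, where genes of at least 50 counts above 2 were 32.8%, 97.7%, 9.38% and 49.3%.

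Genes called were 439 in WT maturation and 0 with the replicate block or with all genes of at least 1 count, 35 at a minimum of 10 counts, 78 in one fit of all 11 libraries, 891 with DESeq2, 925 with library size only and 1074 with DESeq2 size factors (117 higher and 957 lower, against 204 and 235). In Nat10-ZcKO maturation they were 360 (226 higher), 789 with DESeq2, 125 with the block, and 0 to 778 with 1 library left out. At GV they were 0, 6 with DESeq2, 25 in one fit of 11, 41 at 1 count and 385 without Nat10-ZcKO GV replicate 3. At MII they were 4, 15 with DESeq2, 24 with library size only, 9 with DESeq2 size factors, 17 at 10 counts, 19 in one fit of 11, 0 at 1 count, 0 with the block and 1451 without WT MII replicate 1. The interaction called 35, 59 with DESeq2 size factors, 10 at 1 count, 17 at 10 counts, 8 with the block and 948 without WT MII replicate 1. The median log2 change of all genes in WT maturation was -0.44 with TMM, -0.77 with library size only and -1.53 with DESeq2 size factors; no member changed sign with these scalings there.

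The labels do not say whether the replicate numbers pair the samples. Deviations of same-numbered libraries correlated at -0.04 to 0.11, with the 3 libraries that stand apart included. The replicate block called 0 members in all 5 comparisons. The reported fits called a member only in Nat10-ZcKO maturation, so these counts cannot decide whether the samples are paired.

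Signs of single members turned as follows. Without the 3 libraries, the log2 change at GV was 0.15 for Dnmt1, 0.28 for Uhrf1, 0.67 for Dppa3, 0.26 for Kdm1b and -0.0223 for Zfp57 (-0.00502 for Zfp57 at 1 count). At MII it was -0.0145 for Tet3, -0.0381 for Zfp57 and -0.0937 for Trim28. In the interaction it was -0.0566 for Dnmt3a, -0.53 for Dppa3, -0.11 for Zfp57, -0.67 for Trim28 and -0.15 for Kdm1b, and Trim28 was at -0.43 with DESeq2, -0.81 with library size only and -0.39 with DESeq2 size factors. In Nat10-ZcKO maturation Dnmt1 was at 0.0446 at 1 count, 0.0334 at 10 counts and 0.22 with the replicate block, and Uhrf1 at 1.33 with the block. Dppa3 there was at 0.19 with DESeq2, 0.45 in one fit of 11, 0.42 with library size only, 0.0869 with DESeq2 size factors, 0.40 at 1 count, 0.41 at 10 counts and 2.24 with the block.

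With 1 library left out, members that turned ranged as follows. At GV Zfp57 ran from -0.635 to 1.085. At MII Kdm1b ran from -0.53 to 7.20, Tet3 from -0.0145 to 5.37, Trim28 from -0.0937 to 3.49 and Zfp57 from -0.0381 to 8.73. In WT maturation Tet3 ran from -2.61 to 3.36, Trim28 from -2.39 to 1.77 and Zfp57 from -7.45 to 1.66. In Nat10-ZcKO maturation Dnmt1 ran from -0.997 to 1.06, Uhrf1 from -1.32 to 2.77 and Dppa3 from -0.62 to 8.31. In the interaction Trim28 ran from -0.52 to 3.83 and Zfp57 from -0.10 to 8.89.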

Other observations

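Dppa3 held 0 counts in Nat10-ZcKO GV replicates 1 and 2, which with 3 counts as the limit allows up to 70.8 and 58.0 CPM, against 617 CPM in replicate 3 and 329 to 603 CPM in WT GV. In the same libraries Trim28 was at 992 and 232 CPM, against 157 to 322 CPM in WT GV, so that only replicate 1 lay above that range. Replicate 1 held 71 counts on the members, 42 of them on Trim28 and 21 on Dnmt1. Trim28 thus took 59.2% of the members' counts there, against at most 3.09% in each WT GV library.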
